A study of Mus musculus with 36 samples.

Results

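The 10 genes described here are Pax6 and a set of genes that it is known to regulate or to act with in the developing eye and brain: Six3, Six6, Cryaa, Cryab, Meis1, Meis2, Prox1, Mab21l1 and Neurog2. They were chosen by name. A peak was assigned to a gene when the centre of the peak lay in the gene body or within 100 kb of it on mm9, with the gene models of GENCODE M1, which hold 22350 protein-coding genes on chromosomes 1 to 19 and X. PAX6 binding was measured by ChIP-seq in enteric precursor cells (EPCs), neural crest-derived cells of the gut wall that were grown as neurosphere-like bodies (NLBs). The cells came from the ganglionic gut of CD1 mice at an age of 7 days (P7), and all groups share this strain, age and culture with no mutation or treatment between them. Chromatin was precipitated with an antibody against PAX6 in pool 1 (4 libraries), pool 2 (6 libraries) and pool 3 (6 libraries), with as many input libraries (chromatin kept before precipitation) in each pool. Mouse IgG served as negative control in 4 libraries, which all carry the label of pool 1. The libraries of a group were merged before peaks were called, so each group gave 1 list of peaks, the spread between libraries is unknown and the depth behind each list is not in the lists. The number of animals behind a library is not given in the sources used here, and the peak lists hold no expression values, so the labelled cell type was not checked against markers here.

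PAX6 is a transcription factor with 2 DNA-binding parts, a paired domain and a homeodomain. It is required for the eye in most animals, acts again in cortical progenitors and in the endocrine cells of the pancreas, and binds enhancers of its own gene. In the eye field it works with the homeobox genes Six3 and Six6, in the lens it acts on crystallin genes, and in cortex and retina it activates the proneural gene Neurog2.

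Of the 10 genes, 5 had at least 1 PAX6 peak: Pax6, Six3, Six6, Cryaa and Prox1. Across all protein-coding genes the same rule was met by 17.5%. Pool 1 had peaks at 2 of the 10 genes (Six3 and Prox1) against 4.25% of all protein-coding genes, pool 2 at 3 (Pax6, Six6 and Cryaa) against 8.08%, and pool 3 at 1 (Cryaa) against 6.84%. Cryaa was the only one of the 10 genes with peaks of at least 2 pools, a rule met by 1.56% of all protein-coding genes. This count became 0 with windows of 50 kb, at scores of 70 or more, at scores of 100 or more, without pool 2 and without pool 3. IgG had a peak at 1 of the 10 genes, Prox1, against 8.63% of all protein-coding genes. The count of 5 genes became 3 without pool 1 and 3 without pool 2. It became 3 at scores of 70 or more and 1 at scores of 100 or more. These score limits act unequally, since the median score was 62.05 in pool 1 and 105.615 in pool 3. The share of all protein-coding genes was not computed at these limits. No test was made of these shares, because the genes were named with results of these data known.

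**Figure D1:**
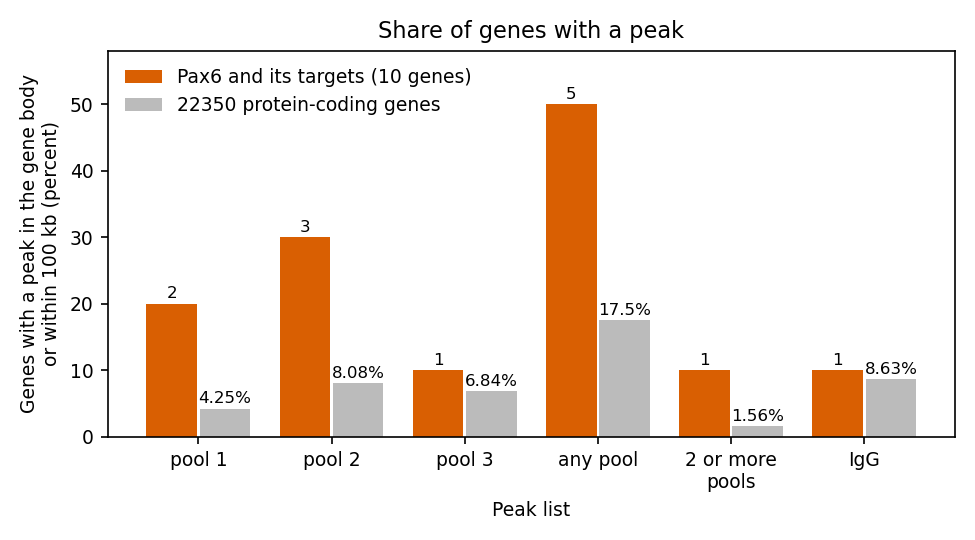
Share of genes with a peak in the gene body or within 100 kb (vertical axis, percent), for the 10 genes (orange, with the number of genes above the bar) and for all 22350 protein-coding genes (grey), by peak list. A PAX6 peak of any pool was found at 5 of the 10 genes and at 17.5% of all protein-coding genes.

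The windows of the 10 genes were of ordinary length, with a median of 211.58 kb against 215.43 kb over all protein-coding genes. Together they cover 2.46 Mb and held 7 PAX6 peaks, or 2.845 peaks per Mb. The exact Poisson 95% interval was 1.14 to 5.86, which covers counting error only. It takes the peaks as independent, although 3 of the 7 lie at Cryaa. It is not a test, because the genes were named with results of these data known. The genome held 0.841 PAX6 peaks per Mb and the windows of all protein-coding genes 0.881, so that 2.07 peaks would lie in the 10 windows at the density of the genome. The ratio to the genome was 3.383 over the 3 pools, and 3.011 without the peaks that overlap an IgG peak. By pool the ratio was 4.39 in pool 1 (2 peaks), 3.16 in pool 2 (3 peaks) and 3.01 in pool 3 (2 peaks). Of the 2 pool 1 peaks, the 1 at Prox1 overlapped an IgG peak. For IgG it was 1.07, with 1 peak in the windows and 0.406 peaks per Mb (0.0103 to 2.26). The PAX6 density sums 3 lists and the IgG density is that of 1 list, so they were not compared with each other, and with 1 to 3 peaks a list the ratios are imprecise.

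None of the 7 PAX6 peaks lay inside the body of the gene it was assigned to, and none lay within 10 kb of a start site of that gene. A count of 0 among 7 peaks allows a share of up to 42.9% by a rough rule, 3 divided by the number of peaks. Gene bodies are a small part of these windows. At the 5 genes with a peak they ran from 3790 bp in a window of 203.79 kb (Cryaa) to 48900 bp in 248.9 kb (Prox1). The 0 inside gene bodies therefore does not set these peaks apart. Within 10 kb of any annotated start lay 1 of the 7 peaks, that of Six6, and 24.8% of all 2219 PAX6 peaks on these chromosomes. Upstream peaks numbered 4 and downstream peaks 3. Introns of neighbouring transcripts held 3 of the peaks and 4 were intergenic, while over all PAX6 peaks 37.5% were intronic and 61.2% intergenic. In 5 of 7 cases the gene's own start site was the nearest annotated start. How often this holds for other genes and their peaks was not counted, so it does not tie the peaks to these genes. No peak near these genes overlapped a peak of another pool. The share of all PAX6 peaks with such an overlap was not counted, so this 0 does not set these genes apart. Of the 7 peaks, 1 overlapped an IgG peak, against 3.65% of all 2247 PAX6 peaks. That peak was of pool 1, where the share was 7.74%.

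**Figure D2:**
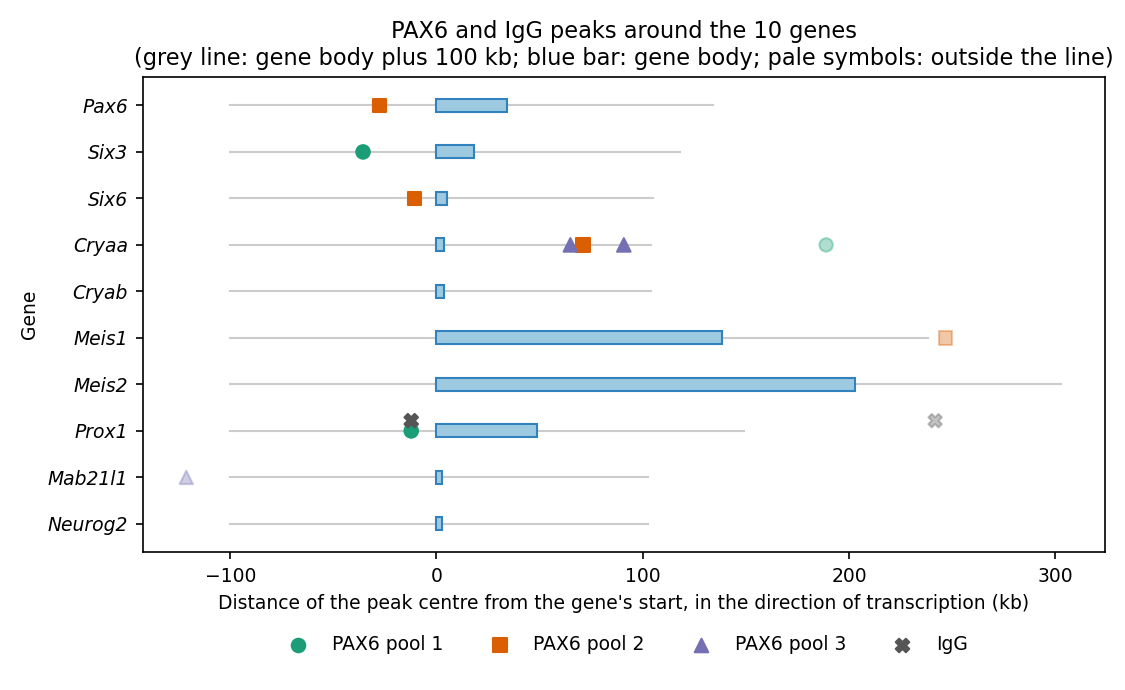
Position of each peak centre relative to the start of the gene (horizontal axis, kb, in the direction of transcription), with 1 row per gene, blue bars for gene bodies and grey lines for the 100 kb limits. Symbols give the PAX6 pools and IgG, and pale symbols lie outside the limits. All 7 assigned PAX6 peaks lie outside the blue bars, and the PAX6 and IgG symbols at Prox1 fall at the same place.

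The sequences under 4 of the 7 peaks, those at Pax6, Six3, Six6 and Prox1, held long runs of CA or TG dinucleotides, and the parts that show this are given here. Each is 160 bases of the plus strand of mm9, read from the reference genome (strain C57BL/6J, not the CD1 strain of the cells, in which repeats may differ in length). Capitals mark uninterrupted CA or TG repeats of 12 bp or more. The Pax6 sequence is chr2:105481152-105481311, Six3 is chr17:85977385-85977544, Six6 is chr12:74030201-74030360 and Prox1 is chr1:192006556-192006715 (bases shared by the PAX6 and the IgG peak).
Pax6, pool 2: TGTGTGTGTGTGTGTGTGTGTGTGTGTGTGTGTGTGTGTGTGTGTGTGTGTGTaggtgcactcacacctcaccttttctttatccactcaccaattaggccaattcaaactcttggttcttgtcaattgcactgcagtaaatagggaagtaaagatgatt
Six3, pool 1: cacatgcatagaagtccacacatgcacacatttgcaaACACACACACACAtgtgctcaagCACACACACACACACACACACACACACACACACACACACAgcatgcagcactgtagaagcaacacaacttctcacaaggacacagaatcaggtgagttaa
Six6, pool 2: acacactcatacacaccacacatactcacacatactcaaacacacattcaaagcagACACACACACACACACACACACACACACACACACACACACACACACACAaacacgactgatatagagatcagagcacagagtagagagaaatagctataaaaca
Prox1, pool 1 and IgG: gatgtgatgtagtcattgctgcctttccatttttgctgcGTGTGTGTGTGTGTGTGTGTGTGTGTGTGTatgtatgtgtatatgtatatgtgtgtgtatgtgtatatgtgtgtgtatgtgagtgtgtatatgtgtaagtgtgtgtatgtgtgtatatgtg

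Pax6 itself (ENSMUSG00000027168.12) is a plus-strand gene at chr2:105509053-105543317, and Pax6os1 and Elp4, both on the minus strand, overlap its ends. Its only peak came from pool 2 and lay 27.6 kb upstream of the first Pax6 start, from 105481152 to 105481697, in an intron of the antisense transcript Pax6os1. The score, which the authors took from the MACS p-value on a logarithmic scale so that a higher score means a smaller p-value, was 50.78. This is close to the lowest score of any list, 50.04, and ranks 1023 of the 1032 peaks of pool 2. The TG repeat shown in capitals was 53 bp long inside the peak, began 2 bases before its first base and so made up the upstream edge of the peak. Introns of Elp4 are known to hold long-range enhancers of Pax6, and the gene body of Pax6 holds enhancers to which PAX6 itself binds in the eye. No peak of any list was found in the Pax6 body or in the 100 kb after it. The nearest peaks to Pax6 in the other lists were 1182 kb away in pool 3, 6063 kb away in pool 1 and 2322 kb away for IgG.

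The eye field genes Six3 and Six6 encode homeodomain proteins of the same family, and each had 1 PAX6 peak, upstream of the gene. Six3, which is needed for forebrain and eye formation, is a plus-strand gene at chr17:86012948-86031153. Its peak was found in pool 1, 35.6 kb upstream, from 85977069 to 85977611, with a score of 54.72 (rank 393 of 491, higher than 20.0% of the list). This peak was intergenic, and Six3 was the only protein-coding gene within 100 kb of it. The nearest pool 3 peak was 415 kb from Six3 and the nearest pool 2 peak 4936 kb from it.

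Six6, which controls the growth of retina and pituitary, is a plus-strand gene at chr12:74040932-74045886. Its peak in pool 2, from 74029955 to 74030360, was the closest of the 7 to the start of its gene, 10.8 kb upstream. With a score of 99.19 it ranked 152 of 1032 and was higher than 85.3% of pool 2. It lay in an intron of 4930447C04Rik, a gene on the opposite strand that overlaps the start of Six6, and the start of 4930447C04Rik was nearer to it (8.81 kb) than that of Six6. Neither Six3 nor Six6 had an IgG peak in its window, and the nearest IgG peaks were 1009 kb and 740 kb from them.

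The lens genes Cryaa and Cryab encode the alpha-crystallins, small heat shock proteins that keep lens proteins soluble, and only Cryaa had PAX6 peaks. Cryaa is a plus-strand gene at chr17:31814878-31818667, and its 3 peaks all lay downstream, in the intergenic stretch between Cryaa and Sik1, a kinase gene. The first, from 31879650 to 31879904 in pool 3, lay 64.9 kb from the start of Cryaa and had a score of 202.49. It ranked 43 of 724, the highest standing within its list of the 7 peaks (above 93.0% of pool 3). The second, from 31885631 to 31886067 in pool 2, lay 71.0 kb from the start with a score of 66.75 (rank 670 of 1032). The third, again in pool 3 and from 31905431 to 31905974, lay 90.8 kb from the start with a score of 108.35 (rank 329 of 724). Peaks of both pools thus fell in 1 intergenic stretch but did not overlap, and 5.73 kb separated the first from the second and 19.4 kb the second from the third. The third was nearer to the start of Sik1 (87.0 kb) than to that of Cryaa. The nearest IgG peak was 815 kb from Cryaa, but pools 2 and 3 have no IgG libraries of their own. Cryab, on chromosome 9 from 50560863 to 50564738, had no peak in its window, although the window holds the starts of 9 protein-coding genes. The nearest PAX6 peak to it was 332 kb away, in pool 2.

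Prox1, a homeobox gene that lens fibre cells, retinal horizontal cells and lymphatic endothelium need, is a minus-strand gene at chr1:191945660-191994559. Its peak was found in pool 1, 12.3 kb upstream in an intron of the lincRNA Gm17566, from 192006473 to 192007152, with a score of 74.92. This score ranked 88 of 491 and was above 82.1% of pool 1. An IgG peak from 192006556 to 192007052 lay wholly inside it, so that all 497 bp of the IgG peak were shared. The IgG peak had a score of 88.88, rank 97 of 1007, above 90.4% of its list. Both antibodies thus gave a peak at the same place at Prox1, and the nearest peak of pools 2 and 3 was 405 kb from the gene. Without the peaks that overlap an IgG peak, 4 of the 10 genes and 6 peaks were left.

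**Figure D3:**
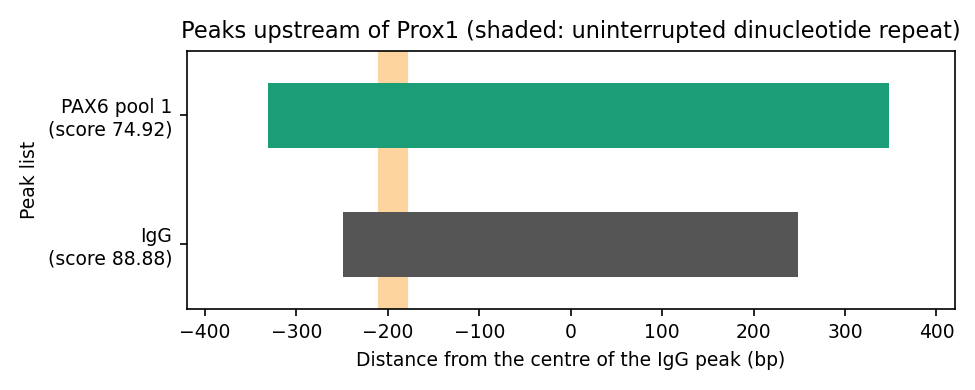
The PAX6 peak of pool 1 (green) and the IgG peak (dark grey) upstream of Prox1, as distance from the centre of the IgG peak (horizontal axis, bp). The IgG peak of 497 bp lies inside the PAX6 peak of 680 bp, and both hold the uninterrupted repeat of 30 bp (shaded).

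Meis1 and Meis2 encode homeodomain cofactors that bind a lens enhancer of Pax6, Mab21l1 is needed for the lens vesicle and Neurog2 encodes a proneural bHLH factor. None of these 4 genes had a peak of any list in its window. Meis2 has the widest window of the 10 genes, 402.78 kb, and its nearest PAX6 peak was 843 kb away. For Neurog2 the nearest PAX6 peak was 1541 kb away, the farthest of the 10 genes, while an IgG peak was 420 kb away. Meis1 and Mab21l1 fell just outside the limit. A pool 2 peak with a score of 68.73 lay 108 kb beyond the end of Meis1, with no protein-coding gene within 100 kb, and a pool 3 peak with a score of 106.97 lay 121 kb upstream of Mab21l1, in an intron of Nbea, the gene in whose body Mab21l1 lies. The assigned peak farthest from its gene was the third Cryaa peak, 87.0 kb beyond the end of Cryaa.

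Ranked within its own list, the standing of the 7 peaks ran from the lowest to the highest parts of the lists. The first Cryaa peak, the Six6 peak and the Prox1 peak stood above 80% of their lists, the third Cryaa peak above 54.6%, and the Cryaa peak of pool 2, the Six3 peak and the Pax6 peak above 35.0%, 20.0% and 0.872%. The median of these 7 percentiles was 54.6, but it was 34.98 without pool 3 and 68.32 without pool 2. Scores of 100 or more were reached by 2 peaks, both at Cryaa and both in pool 3, the list with the highest median score (105.615 against 62.05 in pool 1 and 68.98 in pool 2). Scores under 70 were found for 3 peaks, those of Pax6, Six3 and the Cryaa peak of pool 2.

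**Figure D4:**
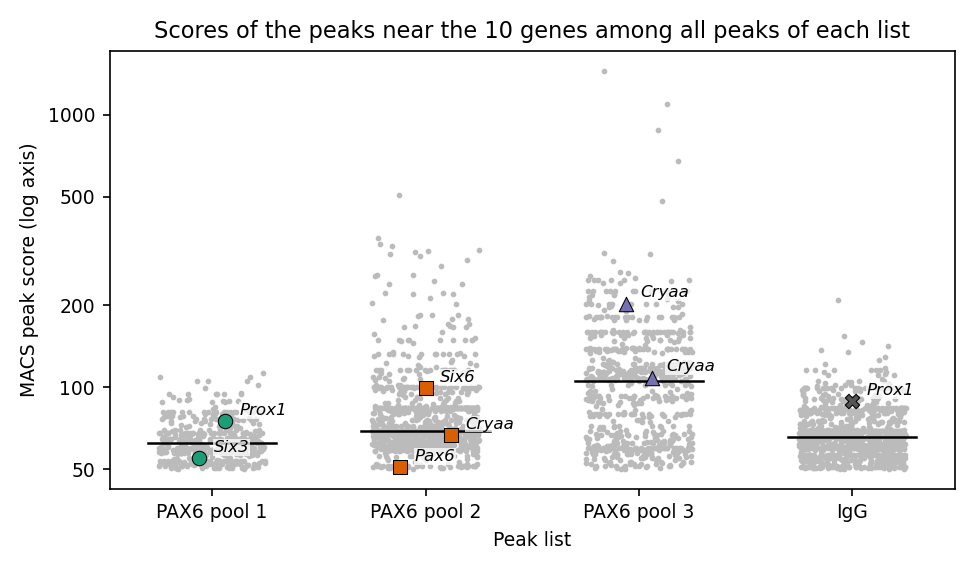
MACS peak score (vertical log axis) of the peaks near the 10 genes (large symbols with gene names) among all peaks of each list on chromosomes 1 to 19 and X (grey points, with the median as a black line). The Cryaa peak with a score of 202.49 stands high in pool 3, and the Pax6 peak with a score of 50.78 lies at the bottom of pool 2.

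Of the 7 PAX6 peaks, 4 (57.1%) contained an unbroken CA or TG run no shorter than 20 bp, and the share was much the same over all PAX6 peaks, 55.2%, and over IgG peaks, 62.6%. Of the 5929343 stretches of 431 bp, the median width of the PAX6 peaks, into which the chromosomes were divided, 4.21% held such a repeat. The longest repeats measured 53 bp at Pax6, 49 bp at Six6, 40 bp at Six3 and 30 bp at Prox1. The 3 Cryaa peaks held only short ones of 14, 12 and 11 bp. After the sequences were seen, the share of TG, GT, CA and AC among all dinucleotide steps was counted as well. It was 55.9% in the highest Cryaa peak and 51.2% in the third, against a median of 56.52% over pool 3. In pool 2 it was 52.1% at Six6, 39.7% at Cryaa and 39.45% at Pax6, against a median of 37.5%. In pool 1 it was 50.0% at Six3 and 47.7% at Prox1, against a median of 34.6%, and the Prox1 peak of IgG had 59.3% against a median of 46.65%. Over mm9 such steps made up 25.57%, so all of these peaks lay above the genome, as the medians of all 4 lists did.

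**Figure D5:**
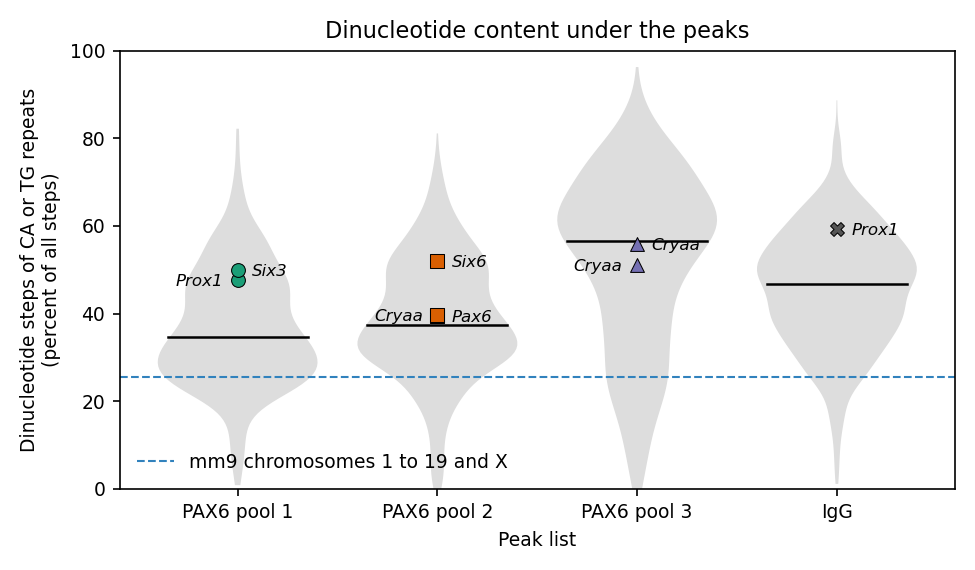
Share of TG, GT, CA and AC among the dinucleotide steps under each peak (vertical axis, percent), with grey shapes for all peaks of a list, black lines for their medians and symbols for the peaks near the 10 genes. The peaks at these genes have 39.45% to 59.3%, above the 25.57% of the genome (dashed line) and within the range of their lists.

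Repeats can also make reads hard to place, and the share of 32-base words under a peak that occur once in mm9 was counted as a measure of this. It was 100% for the Cryaa peak of pool 2, 99.8% for the third Cryaa peak, 92.8% at Six3, 90.4% at Six6 and 86.2% at Pax6. The lowest shares were 70.1% at Prox1 (58.4% for the IgG peak there) and 62.5% for the highest Cryaa peak. The median over the 7 peaks was 90.4%, against 79.79% over all PAX6 peaks and 82.69% over IgG peaks.

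Exact letter patterns from binding sites known for PAX6 were searched on both strands, and none was found under these peaks. Sites that differ from these patterns in a base were not searched, so the search cannot show that sites are absent. TTCACGC, the centre of the paired domain consensus, was in 0 of the 7 peaks, in 0.496% of all PAX6 peaks, in 0.795% of IgG peaks and in 0.685% of the 431 bp stretches of the genome. TAAT and ATTA separated by 2 bases, a site that dimers of paired-class homeodomains can bind, was in 0 of the 7 peaks, in 0.631% of all PAX6 peaks and in 1.76% of the stretches. The same letters separated by 3 bases were in 0 of the 7 peaks, in 0.991% of all PAX6 peaks and in 1.5% of the stretches. TAATTA, a common homeodomain core, was in 0 of the 7 peaks, in 8.56% of all PAX6 peaks, in 6.86% of IgG peaks and in 14.8% of the stretches. By the same rough rule, a count of 0 among 7 peaks allows a share of up to 42.9%, so these counts do not set the 7 peaks apart from the rest.

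Other genes of the same networks were read in the same way from 3 lists, of which 72 of 74 genes were matched in GENCODE M1. A PAX6 peak was found at 20 of the 72 genes (27.8%) and an IgG peak at 11 (15.3%), against 17.5% and 8.63% of all protein-coding genes. Both shares were thus above those of all genes, for PAX6 and for IgG. Long genes take more peaks, and the window lengths of the 72 genes were not compared with those of all genes. The shares of the 3 lists are therefore not read as a trait of these genes. Of 17 paralogues of the 10 genes, 3 had a PAX6 peak (17.6%), which is near the share over all genes. They were Neurog3, the endocrine relative of Neurog2 (pool 2, score 76.66, nearer to 2010107G23Rik), Pax7, a regulator of muscle stem cells and neural crest, with a peak 20.4 kb upstream (pool 2, score 75.99), and Pax4, a gene of pancreatic beta cells. Pax4 had peaks of pool 1 (score 56.68) and pool 2 (score 62.24) on opposite sides of the gene, nearer to Snd1 and to Gcc1.

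Of 27 lens and eye genes, 10 had a PAX6 peak (37%) and 6 an IgG peak (22.2%). By standing within its list, the Foxe3 peak came first. Foxe3 encodes a forkhead factor of the lens, and its peak lay 54.7 kb downstream with a score of 224.76 (rank 23 of 724 in pool 3), in an intron of 9130410C08Rik and nearer to Foxd2 than to Foxe3. Next came Mip, the lens aquaporin gene, with a peak 36.7 kb upstream and a score of 134.12 in pool 3, nearer to Gls2. Otx2, a homeobox gene of forebrain and retina, had its peak 89.4 kb upstream (pool 2, score 72.04). Atoh7, which retinal ganglion cells need, had the closest peak of this list, 3.48 kb upstream of its start, with a score of 63.26 in pool 1. Cryba4 and Crybb1, neighbouring beta-crystallin genes, shared 1 PAX6 peak of pool 2, nearer to Tpst2, and 1 IgG peak, so these genes are not independent.

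Of 28 brain and endocrine genes, 7 had a PAX6 peak (25%) and 3 an IgG peak (10.7%). Over the 3 lists 2 of the 72 genes, Pax4 and Wnt7b, had peaks of at least 2 pools, against 1.56% of all protein-coding genes. This count is too small to set them apart. Wnt7b, which encodes a WNT ligand of the cortex, was the only such gene among the 28. Its pool 2 peak lay 15.5 kb upstream with a score of 113.62 (rank 99 of 1032), and its pool 3 peak lay 52.7 kb upstream with a score of 116.86, above 64.6% of its list. The next were Ncam1, a neural cell adhesion gene with an intronic peak in pool 2 (score 89.75), Nkx2-2, a homeobox gene of neural tube and pancreas (pool 1, score 65.04), and Olig2, a gene of motor neuron and oligodendrocyte progenitors (pool 2, score 65.63, nearer to Olig1). None of the 21 PAX6 peaks at genes of the 3 lists overlapped an IgG peak, against 3.65% of all PAX6 peaks. A CA or TG run no shorter than 20 bp was in 11 of the 21, against 55.2% of all PAX6 peaks. Both counts are near these shares.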

How the data were processed

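Reads of the merged libraries of each group were aligned by the authors to mm9 with Bowtie and peaks were called with MACS. Which versions were run is not given in the sources used here. Each deposited score is the authors' value for a peak, -10 times log10 of the MACS p-value (50.04 or higher in these lists). It depends on depth, so it was ranked within a list only. The depth behind each list is unknown, and input and IgG reads were not used here.

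Peak positions were set against GENCODE M1 and the mm9 sequence for chromosomes 1 to 19 and X. Overlap means at least 1 bp. The letters of the sequence under the Cryaa peaks are not printed here. Repeats, motifs and 32-base words were counted on both strands. Window membership and the repeat search were tested on simulated data. The genes, lists and windows were chosen with earlier results of these data known. Named were the 10 genes with every peak, the genes nearest to or around these peaks, and in each related list up to 4 genes with a PAX6 peak, by standing within the list; Cryba4 and Crybb1 were added after their values were seen. Alternatives covered the window, the score limit, the treatment of IgG overlaps, the overlap rule, the repeat length and each pool left out. Sequences were read with pysam 0.24.0, intervals came from scipy 1.17.1, plots from matplotlib 3.10.9, and the rest from numpy 2.4.6 under Python 3.11.15.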

Additional observations from a re-analysis of the deposited data

How the results depend on the processing

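Of 83 values computed under other settings, 60 stayed within 1.5 times the reported count or within 1 SD of the pools. In each of the 10 settings tried, 0 regions near the 10 genes were shared by pools, and the share over all PAX6 peaks was not counted. These 10 values are part of the 60, although stricter settings could not have changed a count of 0. With scores of 70 or more in all lists, 3 genes and 4 PAX6 peaks were left, 2 of them with a repeat, and 0 genes had peaks of at least 2 pools. With scores of 100 or more, 1 gene and 2 PAX6 peaks were left, with 0 genes in at least 2 pools, 0 peaks with a repeat, 0 overlaps with IgG and 0 IgG peaks, and the density relative to the genome was 4.36. With windows of 50 kb there were 4 PAX6 peaks and 0 genes with peaks of at least 2 pools. With windows of 200 kb there were 7 genes with a PAX6 peak, 10 PAX6 peaks and 2 IgG peaks. Leaving out each pool in turn gave 3 to 5 genes with a PAX6 peak, 0 to 1 genes with peaks of at least 2 pools, 4 to 5 peaks, 0 to 1 overlaps with IgG, 2 to 4 peaks with a repeat, a median percentile of 34.98 to 68.32 and a density ratio of 3.1 to 3.572. The lower count of genes, 3, came without pool 1 and also without pool 2, with 2 peaks that hold a repeat in each case. The 4 peaks came without pool 2, the overlap with IgG was lost without pool 1, the gene with peaks of at least 2 pools was lost without pool 2 and without pool 3, and the median percentile of 34.98 came without pool 3. No paired analysis was possible because the libraries were merged before peaks were called and no test was made. With 7 peaks and no read counts, small differences between these genes and others could not be resolved.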

Other observations

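Some lens and eye genes had peaks of both antibodies within 100 kb without overlap between them. These genes, chosen after their values were seen, were Atoh7, Cryba4, Crybb1 and Bfsp2, the gene of a beaded filament protein of the lens. Cryba4 and Crybb1 have the same peaks and are 1 locus. The share of all protein-coding genes with peaks of both antibodies was not counted, so these genes are not set apart. At Atoh7 the PAX6 peak of pool 1 lay 3.48 kb upstream and the IgG peak 59.5 kb downstream. At Bfsp2 the PAX6 peak of pool 3 lay 23.5 kb downstream of the start in the gene (score 74.91, rank 493 of 724) and the IgG peak 17.4 kb upstream (score 90.68, rank 87 of 1007). Neurog3 likewise had a PAX6 peak of pool 2 51.4 kb downstream and an IgG peak 41.4 kb downstream. Whether these positions have anything in common was not tested.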
